A study of Mus musculus with 6 samples.

Results

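Antioxidant enzymes remove superoxide, hydrogen peroxide and lipid peroxides, and glutathione transferases couple glutathione to reactive lipid and drug products. The set described here holds the mouse genes whose symbols in the array annotation name a superoxide dismutase, catalase, a glutathione peroxidase, a peroxiredoxin, thioredoxin and its partners, a glutaredoxin, glutathione reductase or synthetase, or a glutathione transferase, and that at least 1 probe set named alone. It holds 46 of the 17097 genes measured in this way, on 80 of 45037 probe sets. Of these genes, 24 had 1 probe set and 22 had several, and family members that no probe set named alone were not analysed here.

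RNA came from the gastrocnemius, a calf muscle, of male ICR mice that were 7 weeks old when bought and ate the AIN-93G diet. The mice were acclimated for 1 week before they were assigned to a group. The MA group (3 arrays) received this diet with 0.27% maslinic acid (MA), a triterpene acid found in olives, and the control group (3 arrays) received it without MA. Both groups were denervated: both sciatic nerves had been severed 1 week into the diets, and the muscles were taken on day 14 after surgery, so the arrays hold no innervated muscle. The sources used here leave unsaid if a group's 3 arrays are separate mice or pooled RNA, so p-values measure the spread between arrays.

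Superoxide dismutases turn superoxide into hydrogen peroxide, which catalase, the glutathione peroxidases and the peroxiredoxins then break down. The peroxidases draw their electrons from glutathione or thioredoxin, both of which are reduced again at the cost of NADPH. Glutathione transferases are best known from liver, and muscle fibers are a steady source of superoxide and peroxide because of their mitochondria and contractile work.

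All values are log2 signals after RMA, the authors' background correction and normalization, and a difference is the MA mean minus the control mean. Each gene was read from its brightest probe set. The word "rose" or "fell" is used of genes with a Benjamini-Hochberg adjusted p under 0.05 in limma over all 45037 probe sets, and fold changes past 1.2 are marked as such. The arrays had medians between 4.266 and 4.28. A log2 signal of 3.95, the highest of 22 nonspecific-binding controls in any array, served as the background, and 40.5% of probe sets averaged at or under it. All 18 hybridization control probe sets, which detect RNA added to every array in equal amount, were brighter on the MA arrays, by a median of 0.17 and at most 0.35 (1.28-fold). Markers of muscle fibers averaged 12.36 to 12.37 on the MA arrays and 12.26 on the control arrays.

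Of the 46 genes, 24 rose with MA (52.2%), 4 fell (8.7%) and 18 did not pass the test. Across all 17097 genes, 47.8% passed it, with 24.7% that rose and 23% that fell. Of the 44 members above the background, 23 rose (52.3%) and 4 fell (9.09%), beside 28.4% and 28.8% of all 12342 genes above it. The median difference was 0.08 over the members and 0.01 over all genes, and single members lay between -0.45 and 1.14. By the thresholds of the methods, which ask for a fold over 1.2 and an unadjusted p under 0.05, 10 members were higher and 2 lower in MA muscle, beside 12.8% of all genes, 5.92% higher and 6.87% lower. The MA and control arrays did not overlap in 28 members that were higher and 6 that were lower with MA, beside 58.6% of all genes, 30.8% higher and 27.8% lower.

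**Figure D1:**
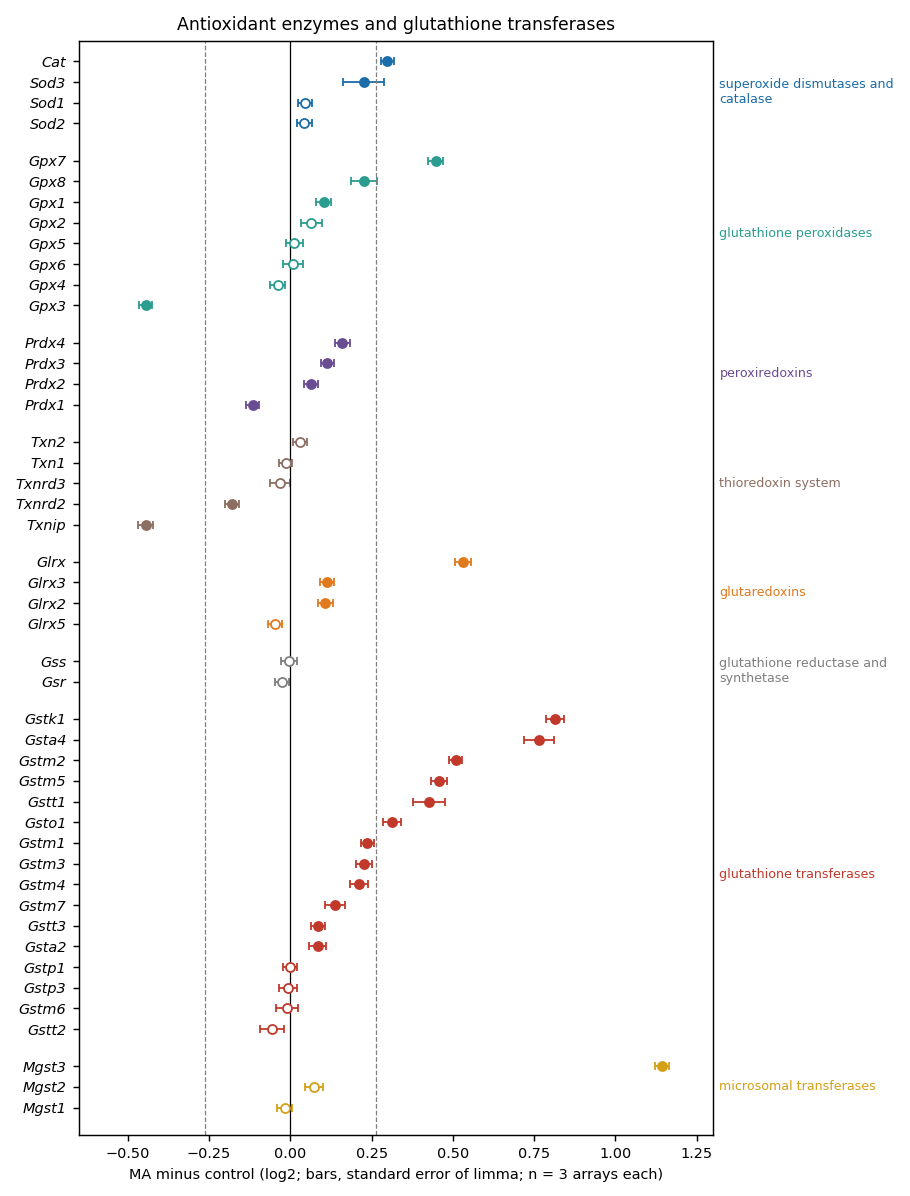
Difference between MA and control in log2 signal (horizontal axis) for the 46 genes, grouped by family and read from the brightest probe set, with bars for the standard error from limma (3 arrays per group), filled points for genes that passed the test and dashed lines at 1.2-fold. Mgst3 lies farthest to the right at 1.14, and Gpx3 and Txnip farthest to the left at -0.45.

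These are bulk samples, in which fewer cells of a type and less RNA per cell cannot be told apart. Of 12 macrophage markers 11 fell, with a median of -0.86, and they averaged 6.275 to 6.305 on the MA arrays and 7.164 to 7.206 on the control arrays. Slow fiber markers averaged 9.68 to 9.70 on the MA arrays and 8.61 to 8.62 on the control arrays, and 6 of 7 rose with a median of 1.07, while 2 of 6 fast fiber markers rose with a median of 0.03. Markers of mitochondrial content averaged 10.65 to 10.67 on the MA arrays and 10.53 to 10.54 on the control arrays, and 6 of 8 rose with a median of 0.13. Of 4 adipocyte markers, Adipoq (0.64), Retn (0.10) and Lep (under the background) rose and Fabp4 fell by 0.22. Of 5 fibroblast markers, Lum (0.64) and Col1a1 (0.59) rose and Dpt fell by 0.12. Endothelial markers fell in 6 of 7 cases (median -0.16), and those of smooth muscle and pericytes in 3 of 4 (median -0.21). The part that these cells and fiber types had in the differences of the members was not tested.

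Most of the glutathione transferases rose. Of the 19 cytosolic, kappa and microsomal transferases, 13 rose (68.4%) and none fell in limma, with a median of 0.21 and 7 genes past 1.2-fold. None was lower at an unadjusted p under 0.05 or in the methods' one-way test either. The 13 include Gsta2, which lay under the background. At their brightest probe sets, the rises of Gsta2, Gstt3, Gstm7, Gstm4, Gstm3, Gstm1 and Gsto1 are below the largest hybridization control difference, 0.35. Among the other 27 genes, 11 rose (40.7%) and 4 fell (14.8%), with a median of 0.04. Of all 17097 genes, 24.7% rose, 23% fell and 5.92% were higher past 1.2-fold. These shares also stand beside each family count below. The difference between the transferases and the other members was not tested.

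Mgst3 showed the greatest difference of the 46 genes. It encodes a membrane-bound transferase that also reduces lipid hydroperoxides with glutathione. Its signal was 7.76, 7.77 and 7.77 on the MA arrays and 6.60, 6.63 and 6.64 on the control arrays. Every MA array thus lay far above every control array, with little spread in either group. The difference was 1.14 (SE 0.0217, 2.21-fold, adjusted p = 6.74e-09 in limma). Its microsomal relatives did not pass the test. Mgst1, an abundant transferase of the endoplasmic reticulum and outer mitochondrial membrane, had 8.72, 8.75 and 8.71 on the MA arrays and 8.74, 8.75 and 8.74 on the control arrays. These arrays overlapped, and the difference of -0.02 had a 95% confidence interval of -0.07 to 0.03 (adjusted p = 0.537 in limma). Mgst2, which can make leukotriene C4, differed by 0.07 (adjusted p = 0.0583 in limma).

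Gstk1, the kappa class transferase of mitochondria and peroxisomes, had 7.05, 7.08 and 7.09 on the MA arrays and 6.22, 6.26 and 6.30 on the control arrays. The groups were far apart, and the difference was 0.81 (SE 0.0274, 1.76-fold, adjusted p = 1.56e-07 in limma). Gsta4, the alpha class enzyme that conjugates the lipid peroxidation product 4-hydroxynonenal, had 5.78, 5.86 and 5.91 on the MA arrays and 5.09, 5.16 and 5.01 on the control arrays. Its arrays varied more than those of Gstk1 but did not overlap. Gsta4 rose by 0.76 (SE 0.045, 1.70-fold, adjusted p = 3.91e-06 in limma). Gsta2, the other alpha class gene measured, passed the test but lay under the background in both groups, so no fold is given for it.

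The mu class, which conjugates a broad range of reactive compounds, had 6 genes of 7 that rose. The remaining one, Gstm6, lay under the background in both groups. Gstm2 had 8.76, 8.78 and 8.75 on the MA arrays and 8.26, 8.25 and 8.26 on the control arrays, a difference of 0.51 (SE 0.0207, 1.42-fold, adjusted p = 4.64e-07 in limma). Gstm5 had 8.85, 8.89 and 8.92 on the MA arrays and 8.45, 8.42 and 8.41 on the control arrays, a difference of 0.46 (SE 0.0252, 1.37-fold, adjusted p = 2.70e-06 in limma). In both genes the 3 MA arrays were above the 3 control arrays by much more than the spread within a group. Gstm1 had 9.69, 9.67 and 9.67 on the MA arrays and 9.44, 9.43 and 9.45 on the control arrays, and its 4 probe sets all rose, by 0.24 to 0.32. Gstm3 rose by 0.23, Gstm4 by 0.21 and Gstm7 by 0.14, each below 1.2-fold. The sequences of mu class genes are close to each other, so probe sets of the x_at and s_at kinds, such as those used for Gstm1 and Gstm3, may also bind RNA of their relatives, and these genes are not independent readings.

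**Figure D2:**
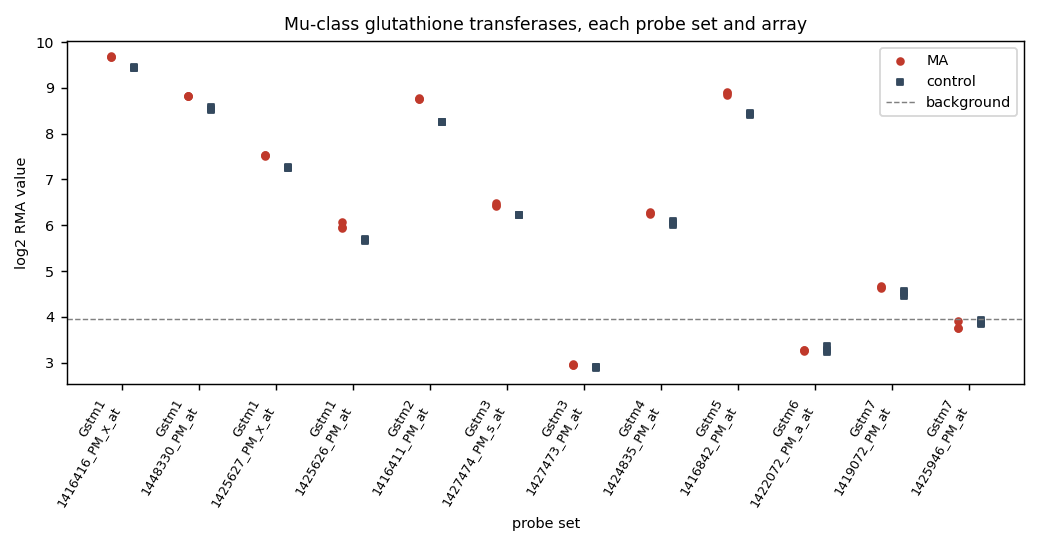
Log2 signal (vertical axis) of the probe sets of the mu class genes on each array, MA arrays left of control arrays, with 1 point per array and a dashed line at the background. All 4 Gstm1 probe sets and those of Gstm2, Gstm4 and Gstm5 have their MA points above their control points, while Gstm6 shows no such gap.

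In the RefSeq annotation the mu class genes lie side by side on chromosome 3 in the order Gstm5, Gstm7, Gstm6, Gstm3, Gstm2, Gstm1 and Gstm4, with only pseudogenes between them. Promoter windows of 300 bases, 250 before and 50 after the gene start, were available in RefSeq (GRCm38.p6) for 42 of the 46 members. The windows were searched on both strands for 3 motifs, and a gene counted once if any of its windows held the letters. The core of the antioxidant response element bound by Nrf2 (TGACNNNGC) was in 5 of 42 members (11.9%), namely Gstm5, Gstm7, Mgst1, Prdx1 and Sod1, and in 14% of all genes. Of these 5 members, 2 rose and 1 fell. The FoxO element TGTTTAC was in Glrx2 and Txnip (4.76% of members and 4.05% of all genes), and the E-box CACGTG was in Glrx2, Gpx6 and Prdx4 (7.14% of members and 8.09% of all genes). A match is a description of these letters and not evidence of binding.

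The windows of 5 members are printed here 5′ to 3′ in the direction of the gene: Mgst3, with the greatest rise of all members, Gstm2, with the greatest of the mu class, and Gstm5, Prdx1 and Txnip, where capitals mark the matched letters. Mgst3 (chr1:167393792-167394091, minus strand) and Gstm2 (chr3:107986371-107986670, minus strand) hold none of the 3 motifs. Gstm5 (chr3:107895604-107895903, plus strand) has its response element match starting 42 bases before the gene start, and Prdx1 (chr4:116685349-116685648, plus strand) has one on the opposite strand 133 bases before it. Txnip (chr3:96557707-96558006, plus strand) has a FoxO match on the opposite strand 121 bases before it.
Mgst3: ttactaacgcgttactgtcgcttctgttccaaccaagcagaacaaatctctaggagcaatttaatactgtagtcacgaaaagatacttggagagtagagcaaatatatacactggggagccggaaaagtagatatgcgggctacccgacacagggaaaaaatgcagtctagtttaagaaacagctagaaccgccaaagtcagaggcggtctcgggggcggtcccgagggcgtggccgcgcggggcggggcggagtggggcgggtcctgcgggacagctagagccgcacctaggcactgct
Gstm2: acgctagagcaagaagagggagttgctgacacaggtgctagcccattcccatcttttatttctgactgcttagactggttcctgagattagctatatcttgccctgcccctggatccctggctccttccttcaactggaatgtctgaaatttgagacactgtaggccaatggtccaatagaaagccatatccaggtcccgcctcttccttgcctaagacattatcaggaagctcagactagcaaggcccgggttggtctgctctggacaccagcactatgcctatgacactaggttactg
Gstm5: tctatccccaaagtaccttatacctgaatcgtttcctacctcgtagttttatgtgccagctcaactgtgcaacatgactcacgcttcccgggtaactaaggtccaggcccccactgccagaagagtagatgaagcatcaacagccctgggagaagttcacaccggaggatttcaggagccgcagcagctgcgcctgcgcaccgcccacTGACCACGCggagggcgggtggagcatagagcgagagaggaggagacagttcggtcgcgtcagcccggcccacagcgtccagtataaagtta
Prdx1: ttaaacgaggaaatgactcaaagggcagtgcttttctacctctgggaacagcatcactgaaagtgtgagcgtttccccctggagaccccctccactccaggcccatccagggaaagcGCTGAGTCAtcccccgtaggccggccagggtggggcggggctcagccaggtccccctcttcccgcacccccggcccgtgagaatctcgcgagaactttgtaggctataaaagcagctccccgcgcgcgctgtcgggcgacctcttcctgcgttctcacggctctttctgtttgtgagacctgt
Txnip: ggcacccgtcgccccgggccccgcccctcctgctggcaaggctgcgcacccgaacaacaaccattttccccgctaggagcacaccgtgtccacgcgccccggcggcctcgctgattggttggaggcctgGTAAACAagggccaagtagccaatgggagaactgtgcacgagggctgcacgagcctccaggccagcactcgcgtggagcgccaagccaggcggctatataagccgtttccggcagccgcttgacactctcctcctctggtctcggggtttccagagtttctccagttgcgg

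The remaining transferase classes differed between their genes. Gstt1, a theta class enzyme that acts on small halogenated compounds, had 6.18, 6.18 and 6.20 on the MA arrays and 5.87, 5.65 and 5.75 on the control arrays. The control arrays spread more widely than the MA arrays but stayed below them, and the difference was 0.43 (SE 0.0483, 1.34-fold, adjusted p = 1.85e-04 in limma). Gstt3 rose by 0.09 (adjusted p = 0.0135 in limma, and 0.0511 without MA array 2), and Gstt2 differed by -0.06 and did not pass. Both lay close to the background, Gstt3 at 4.23 with MA and 4.14 in the control group and Gstt2 at 3.96 and 4.02. Gsto1, the omega class enzyme that reduces dehydroascorbate, had 8.92, 8.92 and 8.96 on the MA arrays and 8.66, 8.58 and 8.62 on the control arrays. Both of its probe sets rose, by 0.31 (1.24-fold, adjusted p = 4.02e-05 in limma) and 0.36. Gstp1, the pi class enzyme that is abundant in many tissues, had 10.87, 10.88 and 10.89 on the MA arrays and 10.90, 10.87 and 10.87 on the control arrays. The groups overlapped, and the difference of 0.0002 had a 95% confidence interval of -0.05 to 0.05 (adjusted p = 0.995 in limma). Gstp3, the other pi class gene, lay close to the background (4.01 with MA and 4.02 in the control group), differed by -0.01 and did not pass.

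Among the enzymes that act on superoxide and hydrogen peroxide first, catalase rose and the cytosolic dismutase did not pass the test. Catalase (Cat), the peroxisomal enzyme that splits hydrogen peroxide, had 10.13, 10.12 and 10.12 on the MA arrays and 9.82, 9.82 and 9.84 on the control arrays at probe set 1416429_PM_a_at. The groups did not overlap, and the difference was 0.30 (SE 0.0204, 1.23-fold, adjusted p = 9.57e-06 in limma). The second catalase probe set, 1416430_PM_at, had 9.47, 9.46 and 9.46 on the MA arrays and 9.11, 9.19 and 9.15 on the control arrays. It rose by 0.32 (SE 0.0253, 1.25-fold, adjusted p = 2.33e-05 in limma), so catalase was higher with MA at both. Both catalase folds are below the largest difference between the groups at a hybridization control. The same holds for the rises of Sod3 and Gpx8 at their brightest probe sets. At their brightest probe sets, the rises of Gpx1, Prdx2, Prdx3, Prdx4, Glrx2, Glrx3, Gsta2, Gstm7 and Gstt3 are below even the median difference of these controls, 0.17.

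Sod2, the manganese dismutase of mitochondria, rose at 2 of its 4 probe sets. The brightest, 1448610_PM_a_at, had 9.95, 9.92 and 9.93 on the MA arrays and 9.90, 9.90 and 9.87 on the control arrays, a difference of 0.04 with a 95% confidence interval of -0.01 to 0.09 (adjusted p = 0.141 in limma). At 1454976_PM_at the signals were 7.98, 7.98 and 8.00 on the MA arrays and 7.56, 7.61 and 7.61 on the control arrays. That probe set rose by 0.39 (SE 0.024, 1.31-fold, adjusted p = 5.00e-06 in limma), with no overlap between the groups. At 1417193_PM_at the signals were 9.59, 9.57 and 9.58 on the MA arrays and 9.51, 9.51 and 9.49 on the control arrays, a rise of 0.07 (adjusted p = 0.0212 in limma, and 0.0521 to 0.0698 without MA array 1, MA array 3 or control array 3). The dimmest, 1417194_PM_at, had 5.07, 5.15 and 5.11 on the MA arrays and 5.08, 5.09 and 5.11 on the control arrays, which overlapped (adjusted p = 0.613 in limma). The mean of the 4 probe sets gave a rise of 0.13 (adjusted p = 7.82e-04 in limma). Which transcripts of Sod2 each probe set binds was not tested.

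**Figure D3:**
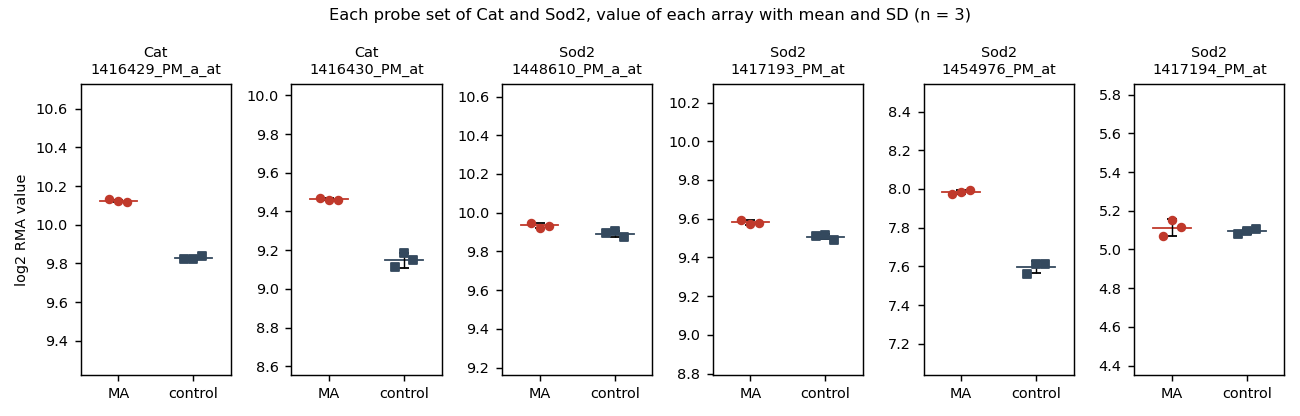
Log2 signal (vertical axis) of the 2 catalase and 4 Sod2 probe sets on each array, MA arrays left of control arrays, with 1 point per array, the mean and the SD. Both catalase probe sets and Sod2 probe set 1454976_PM_at stand clear of the control arrays, whereas the dimmest Sod2 probe set overlaps.

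Sod1, the copper and zinc dismutase of the cytosol, did not pass where it was brightest, with a difference of 0.04 (adjusted p = 0.134 in limma). Its second probe set, at background level, differed by -0.16 (adjusted p = 0.00167 in limma). Sod3, the secreted dismutase of the extracellular matrix, had 5.73, 5.79 and 5.76 on the MA arrays and 5.70, 5.47 and 5.44 on the control arrays. Control array 1 stood close to the MA arrays, and the rise of 0.23 (adjusted p = 0.0196 in limma) lost its call without control array 2 or 3 or MA array 2 or 3 (adjusted p of 0.0539 to 0.0706 in limma). The second Sod3 probe set, close to the background, differed by 0.05 and did not pass (adjusted p = 0.353 in limma).

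The 8 glutathione peroxidases, which reduce peroxides with glutathione, included 3 that rose, 1 that fell and 4 that did not pass. Gpx3, the secreted peroxidase that circulates in plasma, had 10.69, 10.67 and 10.68 on the MA arrays and 11.12, 11.11 and 11.14 on the control arrays. It was the brightest member of this family, and its groups did not overlap. It fell by 0.45 on the log2 scale (SE 0.0214, 1.36-fold lower, adjusted p = 1.19e-06 in limma). Gpx7, a peroxidase of the endoplasmic reticulum that feeds oxidizing equivalents into protein folding, had 5.20, 5.20 and 5.16 on the MA arrays and 4.72, 4.74 and 4.76 on the control arrays. The groups did not overlap, and the difference was 0.45 (SE 0.0232, 1.36-fold, adjusted p = 1.90e-06 in limma). Gpx8, its relative in the same compartment, had 6.41, 6.51 and 6.49 on the MA arrays and 6.17, 6.25 and 6.31 on the control arrays and rose by 0.23 (adjusted p = 0.00243 in limma).

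Gpx1, the cytosolic and mitochondrial peroxidase, rose by 0.10 (adjusted p = 0.00639 in limma). Gpx4, which reduces lipid hydroperoxides in membranes, differed by -0.04 at the brightest of its probe sets and did not pass (adjusted p = 0.207 in limma), while its second probe set fell by 0.13 (adjusted p = 0.00217 in limma). Gpx2, known from the gut, Gpx5, known from the epididymis, and Gpx6 differed by 0.01 to 0.06 and did not pass. Gpx5 (4.12 with MA and 4.11 in the control group) lay close to the background, and Gpx2 (4.36 and 4.30) not far above it. Gpx1 to Gpx4, Txnrd2 and Txnrd3 are selenoproteins. Of these 6, 1 rose (16.7%), 2 fell (33.3%) and 3 did not pass, beside 24.7% and 23% of all genes. So few genes do not set selenoproteins apart from other genes.

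**Figure D4:**
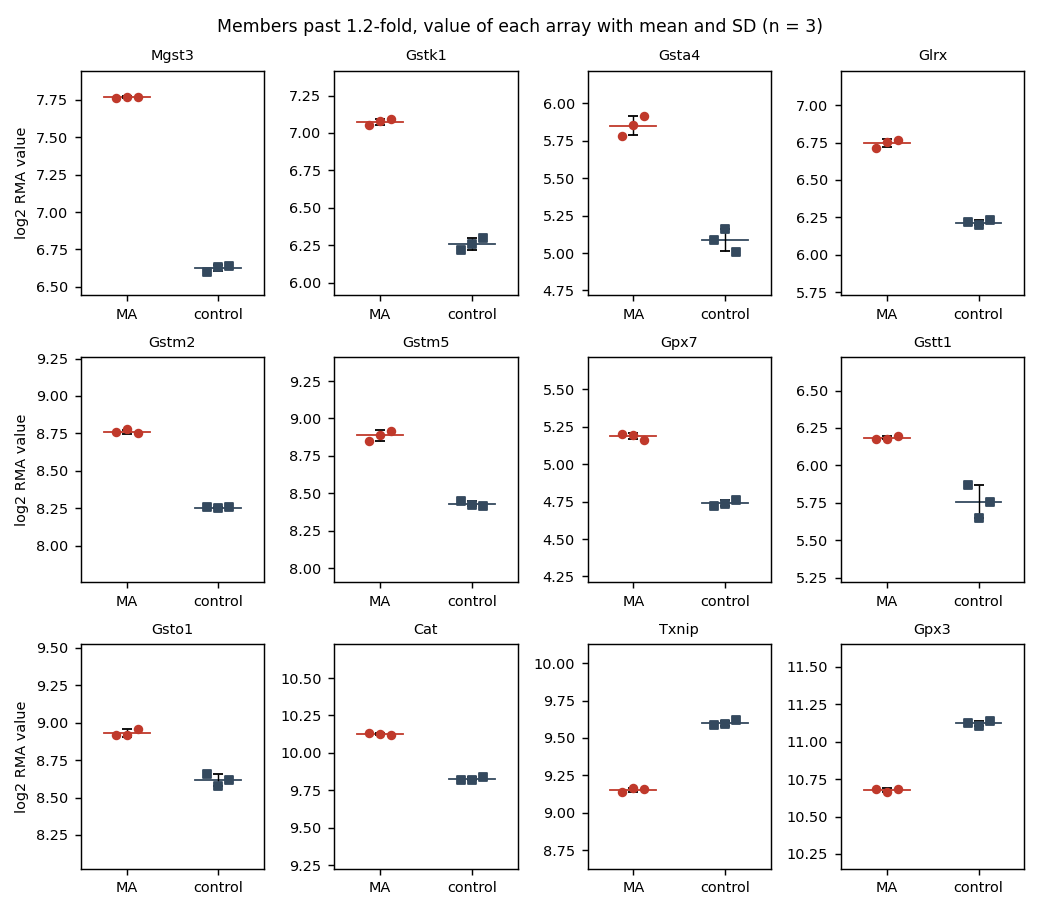
Log2 signal (vertical axis) on each array for the members past 1.2-fold, MA arrays left of control arrays, with 1 point per array, the mean and the SD. Points of a group lie close together in nearly all panels, and Gpx3 and Txnip are the members whose MA points lie below the control points.

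All 4 peroxiredoxins, which reduce hydrogen peroxide at a reactive cysteine, passed the test with small differences: 3 rose and 1 fell. Prdx1, the cytosolic enzyme and the brightest of the family, had 10.72, 10.73 and 10.71 on the MA arrays and 10.83, 10.84 and 10.83 on the control arrays. The groups did not overlap, and it fell by 0.12 on the log2 scale (1.08-fold lower, adjusted p = 0.00215 in limma). Its second probe set differed by -0.06 (adjusted p = 0.0578 in limma). Prdx3, the mitochondrial enzyme, rose by 0.11 (adjusted p = 0.00261 in limma). Prdx4, the enzyme of the endoplasmic reticulum, had 5.72, 5.71 and 5.76 on the MA arrays and 5.57, 5.58 and 5.56 on the control arrays and rose by 0.16 (adjusted p = 7.46e-04 in limma). Of its 4 probe sets, 2 rose and 2 did not pass. Prdx2, another cytosolic enzyme, rose by 0.06 at the brighter of its probe sets (adjusted p = 0.04 in limma, and 0.0615 to 0.0986 without any 1 array) and fell by 0.15 at its second (adjusted p = 0.00107 in limma), so its direction is not settled by these data.

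In the thioredoxin system, which reduces protein disulfides, 2 genes fell, and none rose in limma, in the methods' one-way test or at an unadjusted p under 0.05. Txnip, which binds thioredoxin and restrains it and glucose uptake, had 9.14, 9.16 and 9.16 on the MA arrays and 9.59, 9.59 and 9.62 on the control arrays. Its groups were far apart, and it fell by 0.45 on the log2 scale (SE 0.0218, 1.36-fold lower, adjusted p = 1.34e-06 in limma). The second Txnip probe set had 7.96, 8.01 and 8.02 on the MA arrays and 8.54, 8.55 and 8.54 on the control arrays and fell by 0.55 (1.46-fold lower, adjusted p = 6.43e-07 in limma). Thioredoxin itself (Txn1), the brightest gene of this system, had 11.17, 11.19 and 11.18 on the MA arrays and 11.21, 11.20 and 11.18 on the control arrays. These overlapped, and the difference of -0.01 had a 95% confidence interval of -0.06 to 0.03 (adjusted p = 0.609 in limma). Mitochondrial Txn2 differed by 0.03 and did not pass. Txnrd2, the mitochondrial thioredoxin reductase, had 6.06, 6.07 and 6.04 on the MA arrays and 6.22, 6.25 and 6.24 on the control arrays and fell by 0.18 (adjusted p = 2.62e-04 in limma), although 1 of its other probe sets rose by 0.13. Txnrd3, known from testis, differed by -0.03 and did not pass.

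Glutaredoxins, which take glutathione off protein cysteines, included 3 of 4 that rose. Glrx, the cytosolic enzyme, had 6.72, 6.75 and 6.77 on the MA arrays and 6.22, 6.20 and 6.23 on the control arrays. The groups did not overlap, and the difference was 0.53 (SE 0.0238, 1.44-fold, adjusted p = 8.22e-07 in limma). Its second probe set had 5.47, 5.46 and 5.49 on the MA arrays and 4.70, 4.66 and 4.83 on the control arrays, a rise of 0.74. Glrx3, an iron-handling protein and the brightest of the family, had 9.56, 9.57 and 9.58 on the MA arrays and 9.44, 9.46 and 9.47 on the control arrays and rose by 0.11 (adjusted p = 0.00353 in limma). Glrx2 of mitochondria rose at each of its 3 probe sets, by 0.11, 0.19 and 0.23, and Glrx5, which serves iron-sulfur cluster assembly in mitochondria, differed by -0.05 (adjusted p = 0.104 in limma, 0.00589 in limma with a trend on the mean and 0.0312 in the methods' one-way test, both as a fall).

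The enzymes that remake and recycle glutathione itself did not pass. Glutathione reductase (Gsr), which returns oxidized glutathione to its reduced form, had 7.34, 7.33 and 7.34 on the MA arrays and 7.34, 7.37 and 7.38 on the control arrays. The difference of -0.03 had a 95% confidence interval of -0.08 to 0.02 (adjusted p = 0.368 in limma), while its second probe set fell by 0.10 (adjusted p = 0.0238 in limma). Glutathione synthetase (Gss) differed by -0.0045 and did not pass.

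Other proteins with a thioredoxin fold did not share 1 direction. Of 11 measured, 4 rose (36.4%), 3 fell (27.3%) and 4 did not pass, beside 24.7% and 23% of all genes. Those that rose are known from protein folding in the endoplasmic reticulum (Pdia6 by 0.33, Txndc5 by 0.24, Txndc12 and Pdia3 by 0.11 to 0.12). Pdia4 (0.05) and Tmx1 (0.06), also of the endoplasmic reticulum, did not pass. Selenop, which carries selenium in plasma, fell by 0.40, Nxn, a thioredoxin relative, by 0.31 and Txnl1, a cytosolic one, by 0.21.

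Nrf2 is a transcription factor known to drive many genes of this kind. RNA of Nrf2, related regulators and other textbook Nrf2 targets was also measured. Of 17 regulators and Nrf2 targets outside the set, none rose in limma or at an unadjusted p under 0.05, and 12 fell. Across all genes, 24.7% rose and 23% fell. The other 5 did not pass, among them Slc7a11, which lay under the background. Nfe2l2, which encodes Nrf2, had 8.49, 8.44 and 8.50 on the MA arrays and 8.80, 8.75 and 8.78 on the control arrays and fell by 0.30 on the log2 scale (1.23-fold lower, adjusted p = 3.13e-05 in limma). Its relative Nfe2l1 fell by 0.30, its partner Mafg by 0.29 and its repressor Bach1 by 0.15, and Keap1, the protein that holds Nrf2 back, was not analysed here. Srxn1, the sulfiredoxin that repairs overoxidized peroxiredoxins, had 6.59, 6.64 and 6.62 on the MA arrays and 7.04, 7.02 and 7.01 on the control arrays and fell by 0.41 (1.33-fold lower, adjusted p = 2.96e-06 in limma). Osgin1 fell by 0.37, Gclc, which carries out the limiting step of glutathione synthesis, by 0.22, Nqo1 by 0.21 and Txnrd1 by 0.15. Hmox1 differed by 0.05 and Gclm by -0.04, and both did not pass.

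**Figure D5:**
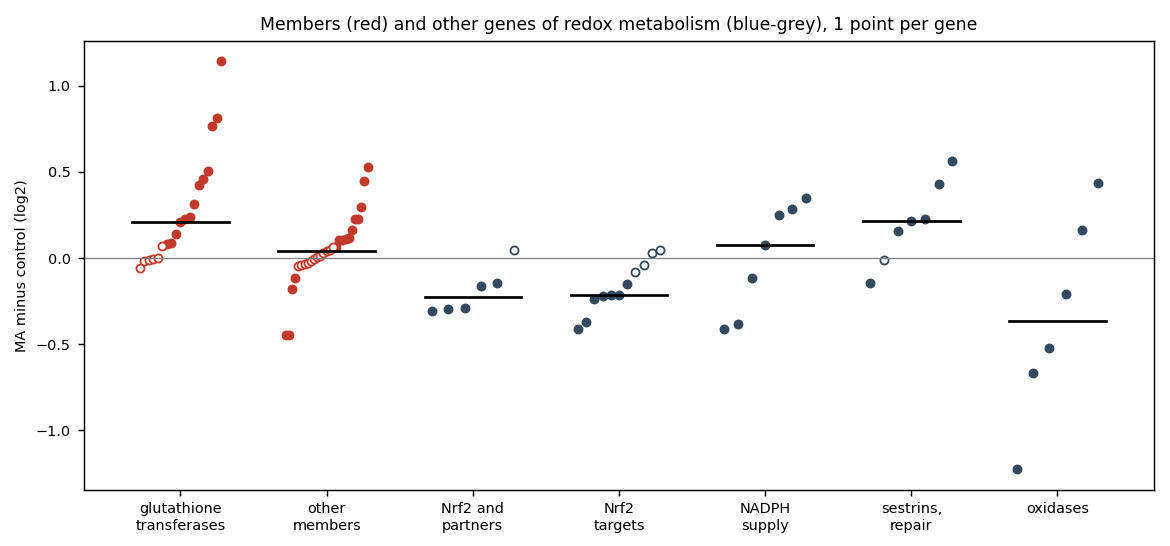
Difference between MA and control in log2 signal (vertical axis) for the glutathione transferases, the other members and some of the surrounding redox groups. These are Nrf2 with related regulators, Nrf2 targets, NADPH supply, sestrins and repair, and oxidases. Glutathione breakdown and precursor supply, metal binding and other thioredoxin-fold proteins are not drawn. There is 1 point per gene, filled where it passed the test, and a line at the group median. The glutathione transferases have a median of 0.21 and the Nrf2 targets one of -0.21.

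Around the set, 60 further redox genes that a probe set named alone were measured, with a median of -0.05. At the adjusted threshold 18 were higher (30%) and 26 lower (43.3%), beside 24.7% and 23% of all genes. Among the enzymes that supply NADPH, the mitochondrial Idh2 (0.35) and Nnt (0.28) and the cytosolic Me1 (0.25) rose, while Pgd (-0.41) and Tkt (-0.38) of the pentose phosphate pathway fell. Methionine sulfoxide reductases, which repair oxidized methionine, rose in all 4 cases, with Msrb3 at 0.57 and Msra at 0.43. Msrb1 rose by 0.16, below the median hybridization control difference of 0.17. The sestrins, listed together with these reductases, were split: Sesn1 rose by 0.22, Sesn3 fell by 0.14 and Sesn2 did not pass. Of 9 genes of glutathione breakdown and precursor supply, 3 rose and 1 fell. The 1 that fell was Chac1, which degrades glutathione, by 1.26 on the log2 scale (2.40-fold lower, adjusted p = 6.52e-09 in limma), whereas Chac2 rose by 0.23. The metal-binding Mt1 and Ftl1 fell by 0.75 and 0.73. Of the enzymes that produce superoxide or peroxide, Cybb, the phagocyte oxidase, fell by 1.23, its subunit Cyba by 0.67 and Ncf4 by 0.53, whereas Nox4 rose by 0.44.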

How the data were processed

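Each array measured RNA of gastrocnemius muscle labelled with a 3' IVT kit. The deposited values are log2 signals that the authors made with RMA in Affymetrix Expression Console, whose version is not given in the sources used here. Probe sets are named as on the mouse array of the methods, although the design text gives a human one. All 6 columns were used.

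The 104 array controls were left out, and 45037 probe sets were fitted in R 4.3.3 with limma 3.58.1 (lmFit and eBayes, MA minus control, no covariate), with Benjamini-Hochberg adjustment over all of them. Of these, 28898 named 1 gene, 551 several and 15588 none in the platform annotation, and only probe sets of 1 gene were named. The background used 22 of 23 nonspecific-binding controls, because the other averaged 7.24 and was left out after its value was seen. The steps were tested on simulated data.

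Values on each array were given for Cat and Sod2, for members past 1.2-fold with an adjusted p under 0.05 above the background, and for the brightest member of each family. Others with such values were picked after their values were seen. The members and lists were chosen with earlier results of these data known. Alternatives changed the moderation, test, normalization, dim probe set filter, block, weights, probe set and arrays. A fold over the largest hybridization control difference was tried later, with the data in view. The number of arrays limits the precision.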

Additional observations from a re-analysis of the deposited data

How the results depend on the processing

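The count of members that rose, the counts past 1.2-fold and the median stayed within 1.5 times the values given under the alternatives run, while 4 members fell, against 5 under the methods' one-way test, 6 with a trend and 7 with the mean of a gene's probe sets. Leaving out each array in turn gave 21 to 24 members that rose, 4 that fell, 10 to 11 higher and 2 lower past 1.2-fold, and a median of 0.0626 to 0.0908. With a fold above 1.28, the largest at a hybridization control, 8 members were higher and 2 lower, and Cat and Gsto1 dropped out. Signs turned for members near 0: with quantile normalization again Txn1 (0.0076), Gsr (0.0006), Gss (0.0283) and Gstp1 (-0.0064), with median centring Gstp1 (-0.0026), and with the mean of probe sets Mgst1 (0.0072), Prdx2 (-0.0419) and Sod1 (-0.0593, adjusted p = 0.0424 in limma). The cause was not tested. Without single arrays Gstp3 ranged from -0.0247 to 0.0152, Gss from -0.0226 to 0.007, Sod2 at 1417194_PM_at from -0.0025 to 0.0405, Gstp1 from -0.0059 to 0.0089, Txnrd3 from -0.0541 to 0.0007, Gpx6 from -0.0072 to 0.0358, Gpx5 from -0.0068 to 0.027 and Gstm6 from -0.0383 to 0.0275. Prdx2 lost its call without any 1 of the 6 arrays, Sod3 without MA array 2 or 3 or control array 2 or 3 and under the methods' one-way test (adjusted p = 0.12), Gsta2 under that test and without MA array 1 or 2 or control array 2 or 3, Gstt3 without MA array 2, Sod2 at 1417193_PM_at without MA array 1 or 3 or control array 3, and Gstm7 with the mean of probe sets. Calls were gained by Sod1, Sod2 at 1448610_PM_a_at, Gpx4 and Glrx5 with a trend (adjusted p of 0.00461, 0.00541, 0.0122 and 0.00589 in limma), by Glrx5 under the one-way test, by Mgst2 with quantile normalization (0.0331), without dim probe sets (0.0443) or without MA array 2, by Gpx2 with array weights (0.0456) or without control array 1, and with the mean of probe sets by Gsr, Gpx4 and Sod2, whose difference became 0.1317. Deviations from the group means correlated at 0.188, 0.0416 and 0.142 between arrays of the same number, and at -0.18 to 0.0698 between the others. The labels name no pairs, and these values do not settle if replicate numbers pair the samples. With the replicate block only Prdx2 lost its call (adjusted p = 0.0652 in limma).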
